A study of Rattus norvegicus with 12 samples.

Results

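Cytokines, chemokines and their receptors were examined in rat ventral midbrain cultures after depolarization with KCl. The members were taken by gene symbol from the annotation of a single-colour Affymetrix rat array: the Cxcl, Cxcr, Tnfrsf, Tnfsf and Tgfb families, numbered Il, Ccl, Ccr and Csf genes, and Tnf, Lif, Lifr, Cntf and Cntfr, leaving out Tnfrsf12a and Tgfbi. They came to 102 genes of the 10411 that have a probe set with a single symbol, at 125 probe sets. Where a gene had several probe sets, the brightest by its mean over the 12 arrays was read. Because the choice went by symbol, it also took in Tgfb1i1, which encodes a focal adhesion LIM protein induced by TGF-beta, and Tgfbrap1, which encodes a receptor-associated protein. Neither is a cytokine.

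Cells of the ventral midbrain of CD1 rat embryos at day 12 were expanded for 6 days in bFGF (20 ng/ml) and SHH (50 ng/ml) and then kept for 3 days without either factor. On day 9 in vitro, cultures received 56 mM KCl for 2 h or stayed in control medium. The groups were depolarized cultures collected 30 min after treatment, their controls collected at 30 min, depolarized cultures collected 2 h after treatment, and their controls collected at 2 h, with 3 arrays each (replicates 1 to 3 at 30 min and 4 to 6 at 2 h). All groups shared the growth factor treatment, embryos of 4 pregnant rats were pooled into 3 groups, and RNA of parallel cultures was pooled before hybridization, so the spread is between pooled cultures and not between animals. The labels do not say whether both collection times came from one preparation, so time of collection and preparation cannot be told apart. In a mixed culture, fewer cells of a type and less RNA per cell cannot be told apart either.

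Cytokines and chemokines are secreted proteins that cells use to signal over short distances. Chemokines act on G-protein-coupled receptors and guide cell movement, TNF family ligands act on trimeric receptors that feed into NF-kB signalling, interleukins of the IL-6 family act through gp130 and JAK-STAT, and TGF-beta ligands act through receptor kinases and SMAD proteins. In brain tissue, glia are a major source of inflammatory cytokines, Cxcl12 with its receptor Cxcr4 guides migrating neurons and progenitors, and Cntf is a survival factor for neurons.

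Most members had weak array signal. Of the 102 genes, 46 were dim, meaning that their mean over 12 arrays lay under the 25th percentile of all 15866 probe sets tested (6.83 on the log2 scale), and 90 lay under the median of all probe sets (8.39). The 7 members above the 75th percentile were Cxcr4, Cxcl12, Il6st, Tgfb2, Tgfbr1, Tnfrsf1a and Tgfb1i1. Correlations between arrays over all probe sets were 0.9957 to 0.9979 within a group and 0.9717 to 0.9922 between groups. All 10 neuron markers and all 8 astrocyte markers measured lay above the dim limit. Of 16 microglia and macrophage markers measured, 8 were dim, among them Ptprc (5.54) and P2ry12 (5.86), while Aif1 (8.14) and Csf1r (7.40) were not. The mean log2 level of these 16 markers per array was 7.02 to 7.21 in depolarized and 6.99 to 7.02 in control cultures at 30 min, and 6.93 to 7.08 in depolarized and 6.80 to 6.94 in control cultures at 2 h. Cd68, a lysosomal protein of phagocytes, rose by 0.38 at 30 min (adjusted p = 0.00021) and Cd14, a co-receptor for bacterial lipopolysaccharide, rose by 0.53 at 2 h (adjusted p = 4.39e-05). Of the 16 markers 2 rose and 0 fell at each time, or 12.5%, against 24.0% of all probe sets called at 30 min and 25.2% at 2 h. The part of these cells in the results was not tested. Of 7 lymphocyte markers 4 were dim, and 0 passed the limma test after depolarization at either time. Their count at an unadjusted p under 0.05 was 0 at 30 min and 1 at 2 h (Cd4, by 0.18), and 0 passed the ordinary equal-variance test.

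At 30 min, 6 members rose and 5 fell after depolarization (limma, Benjamini-Hochberg adjusted p under 0.05 over 15866 probe sets). After median centring of the arrays, 9 rose and 2 fell. The 11 genes called without this centring were 10.8% of the members, against 24.0% of all probe sets called. Among the 46 dim members 3 were called at 30 min, against 6.45% of all dim probe sets, and 4 at 2 h, against 7.46%. At 2 h, 12 members rose and 2 fell, which was 13.7% of the members against 25.2% of all probe sets. Over all probe sets 10.8% rose and 13.1% fell at 30 min, and 9.51% rose and 15.7% fell at 2 h. The median difference of the 102 members was 0.05 at 30 min and 0.07 at 2 h. In all, 21 members were called at 1 time or both, 3 rose at both times (Cxcl1, Cxcl10 and Ccl2), Tgfb1i1 fell at 30 min and was higher at 2 h, and 81 were called at neither time. The depolarized and control arrays did not overlap for 23 members at 30 min and 22 at 2 h, against 36.8% and 37.5% of all probe sets at these times.

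**Figure D1:**
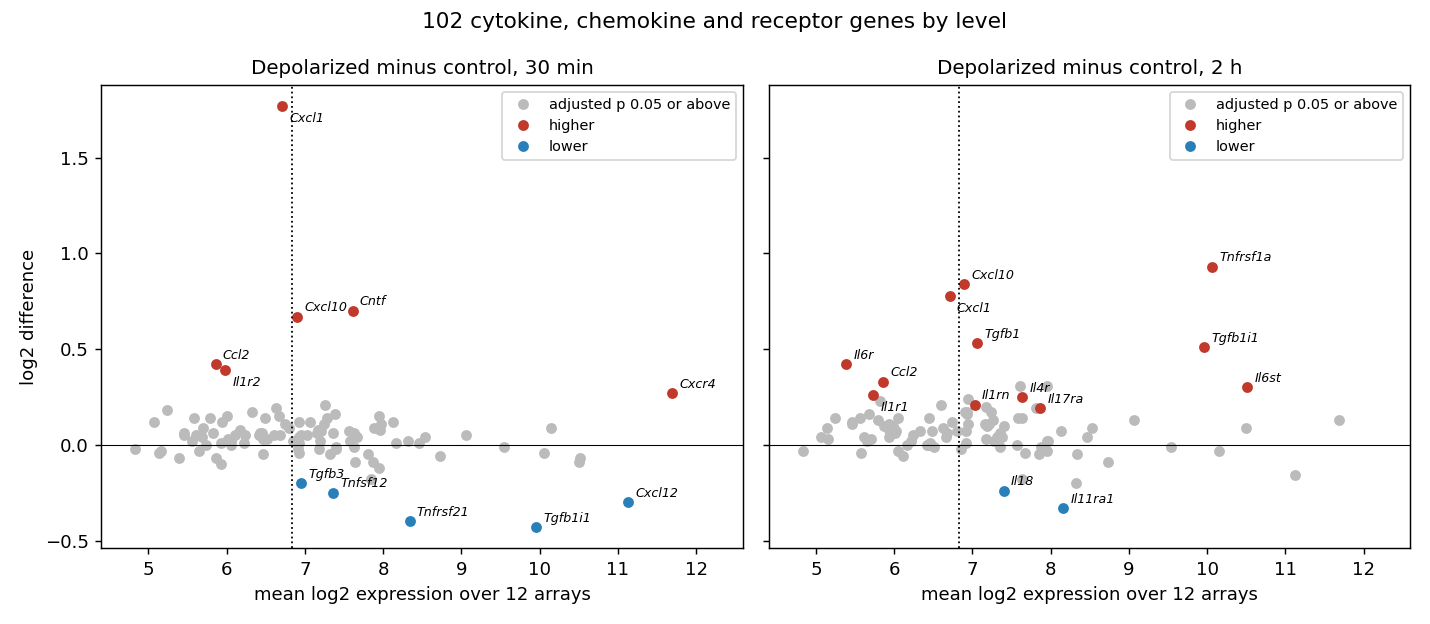
Difference between depolarized and control cultures (log2, vertical axis) against the mean level over 12 arrays (log2, horizontal axis) for the 102 members at 30 min and at 2 h. The dotted line marks the dim limit of 6.83. Most members lie left of the median level of 8.39, and Cxcl1 stands highest at 30 min with 1.77.

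The largest single difference after depolarization was that of the chemokine Cxcl1 at 30 min. Of 21 chemokines, 3 rose and 1 fell at 30 min, and 3 rose and 0 fell at 2 h. These were 19.0% and 14.3% of the chemokines, under the 24.0% and 25.2% of all probe sets called at these times. Cxcl1 (chromosome 14, GRCr8, 17477542 to 17479321), an attractant of neutrophils, had log2 levels of 6.73, 6.57 and 6.98 in depolarized cultures at 2 h, against 5.88, 5.75 and 6.30 in their controls. At 30 min it had 7.64, 7.89 and 8.31 in depolarized cultures, against 6.19, 6.21 and 6.12 in controls. All depolarized arrays lay above all controls at both times. The rise was 0.78 ± 0.15 at 2 h (SE, adjusted p = 0.00138) and 1.77 ± 0.15 at 30 min (adjusted p = 4.17e-07), a 3.41-fold difference. The 2 h response was smaller than the 30 min response by a difference of -0.99 (adjusted p = 0.00583). Its probe set was dim by the mean over all 12 arrays.

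Cxcl10 (chromosome 14, 15989066 to 15991263), an interferon-inducible attractant of T cells, rose at both times. It had 7.33, 7.02 and 7.52 in depolarized cultures at 2 h, against 6.30, 6.49 and 6.57 in controls. The 30 min arrays gave 7.26, 7.22 and 7.33 in depolarized cultures, against 6.54, 6.58 and 6.68 in controls. The groups did not overlap at either time. Cxcl10 rose by 0.84 ± 0.10 at 2 h (SE, adjusted p = 3.08e-05) and by 0.67 ± 0.10 at 30 min (adjusted p = 0.000137). The difference between these responses was 0.17 and did not pass the test (adjusted p = 0.545). The annotated span of Art3 contains that of Cxcl10.

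Ccl2 (chromosome 10, 67503077 to 67504875), an attractant of monocytes, was dim throughout. It had 6.03, 6.10 and 6.07 in depolarized cultures at 30 min, against 5.68, 5.80 and 5.48 in controls. At 2 h it had 6.09, 6.08 and 5.92 in depolarized cultures, against 5.66, 5.72 and 5.72 in controls. The groups were apart at both times, with rises of 0.42 ± 0.08 (SE, adjusted p = 0.000636) and 0.33 ± 0.08 (adjusted p = 0.00476).

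Not all neighbours in the chemokine clusters moved. On chromosome 14, 7 CXC members (Cxcl1, Cxcl2, Cxcl3, Cxcl6, Cxcl9, Cxcl10 and Cxcl13) lie between 13912858 and 17596417, and of these Cxcl1 and Cxcl10 rose at both times. Cxcl2, another neutrophil attractant, differed by 0.12 at 30 min (adjusted p = 0.381) and 0.04 at 2 h (adjusted p = 0.796). Cxcl6 differed by 0.15 at 30 min (adjusted p = 0.158) and 0.06 at 2 h (adjusted p = 0.62). Both were dim. On chromosome 10, 6 CC members lie between 67503077 and 68965728, of which Ccl2 rose at both times and Ccl3, Ccl4, Ccl5, Ccl6 and Ccl11 passed at neither.

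The promoters of Cxcl1 and Cxcl10, which rose at both times, and of 2 chromosome 14 neighbours that did not pass are shown to compare their motifs (RefSeq, GRCr8, 250 bases before the annotated start, 5′ to 3′ on the gene's strand). Capitals mark matches to the NF-kB letters (GGG, any 2 bases, then TTTCC) or the AP-1 letters TGANTCA on either strand. The windows are chr14:17479322-17479571 (minus strand) for Cxcl1, chr14:17467256-17467505 (minus) for Cxcl2, chr14:17596418-17596667 (minus) for Cxcl6 and chr14:15988816-15989065 (plus) for Cxcl10.
Cxcl1: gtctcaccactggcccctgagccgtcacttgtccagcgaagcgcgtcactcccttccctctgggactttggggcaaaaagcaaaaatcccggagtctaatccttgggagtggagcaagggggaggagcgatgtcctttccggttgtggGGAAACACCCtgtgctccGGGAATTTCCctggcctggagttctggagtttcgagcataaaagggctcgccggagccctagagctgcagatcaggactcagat
Cxcl2: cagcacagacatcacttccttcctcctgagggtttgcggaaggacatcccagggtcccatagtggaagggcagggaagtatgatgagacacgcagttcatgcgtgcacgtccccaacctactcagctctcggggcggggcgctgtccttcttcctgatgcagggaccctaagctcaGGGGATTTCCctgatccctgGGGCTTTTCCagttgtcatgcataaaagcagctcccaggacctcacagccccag
Cxcl6: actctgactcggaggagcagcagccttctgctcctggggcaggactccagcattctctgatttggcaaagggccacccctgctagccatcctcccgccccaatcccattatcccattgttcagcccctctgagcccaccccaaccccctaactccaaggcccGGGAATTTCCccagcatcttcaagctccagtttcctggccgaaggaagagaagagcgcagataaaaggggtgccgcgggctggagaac
Cxcl10: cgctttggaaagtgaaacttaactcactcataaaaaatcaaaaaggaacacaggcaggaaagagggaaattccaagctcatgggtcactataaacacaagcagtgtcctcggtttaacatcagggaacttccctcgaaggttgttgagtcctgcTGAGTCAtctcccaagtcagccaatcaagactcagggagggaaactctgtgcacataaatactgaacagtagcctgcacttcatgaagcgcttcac
Cxcl1 held 2 NF-kB matches, 102 to 93 and 84 to 75 bases before its start. Cxcl2 held 2 as well and Cxcl6 held 1, although neither passed the test, and Cxcl10 held 1 AP-1 match. The Cxcl10 window also holds gggaaattcc and gggaacttcc, which each differ from the NF-kB letters by 1 base. Such near matches were not searched in any promoter, so an unmarked window does not mean that NF-kB sites are absent. Cxcl12, called lower at 30 min, held 0 matches to the motifs searched in the same window, and the promoter of Ccl2 was not analysed here. The windows of Il6r, Tgfb1, Tgfb1i1, Tnfrsf1a and Tnfrsf21, all called after depolarization, also held 0 matches. NF-kB matches were found in 8 of the 75 members with a promoter entry (10.7%), against 1.28% of 27457 rat promoters, and AP-1 matches in 10 of 75 (13.3%), against 6.36%. The 8 were Ccl20, Ccr3, Cxcl1, Cxcl2, Cxcl6, Il1rn, Il6 and Tnfrsf4, of which Cxcl1 and Il1rn were called after depolarization. The 10 with AP-1 matches were Ccr3, Cntf, Cxcl10, Cxcl14, Il11, Il15, Il16, Il1a, Tnfrsf1b and Tnfrsf8. Of these 10, Cxcl10 and Cntf were called after depolarization. The CRE letters TGACGTCA were found in 1 member (Il6) and 1.7% of all promoters, and the EGR letters GCGNGGGCG in 1 member (Tgfbr3) and 4.53%. A match describes letters in this window and not a bound site.

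The chemokine Cxcl12 and its receptor Cxcr4, both bright here, went opposite ways at 30 min. Cxcl12 had 11.20, 11.05 and 10.94 in depolarized cultures at 30 min, against 11.60, 11.26 and 11.23 in controls. The groups lay just apart, and Cxcl12 fell by 0.30 ± 0.09 (SE, adjusted p = 0.0289). Its other 2 probe sets differed by -0.32 (adjusted p = 0.0295) and -0.34 (adjusted p = 0.00787). The call was lost without control replicate 1 or depolarized replicate 2 or 3 (adjusted p from 0.0781 to 0.169), after median centring, in a fit of only the arrays compared, and in the ordinary test. At 2 h the difference was -0.16 (adjusted p = 0.252). Cxcr4 had 11.96 to 12.02 in the 3 depolarized cultures at 30 min, against 11.84, 11.59 and 11.75 in controls. All depolarized arrays were higher, by 0.27 ± 0.08 (SE, adjusted p = 0.0244). The other probe sets of Cxcr4 gave 0.34 (adjusted p = 0.0124) and 0.42 (adjusted p = 0.000831). At the brightest probe set the call was lost without control replicate 2 or 3 or depolarized replicate 2 or 3 (adjusted p from 0.051 to 0.133) and in the ordinary test. At 2 h Cxcr4 differed by 0.13 (adjusted p = 0.307). Of 9 chemokine receptors, Cxcr4 was the 1 called at 30 min and 0 were called at 2 h, where 1 had an unadjusted p under 0.05 and 0 passed the ordinary test. Over all probe sets 24.0% were called at 30 min and 25.2% at 2 h.

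**Figure D2:**
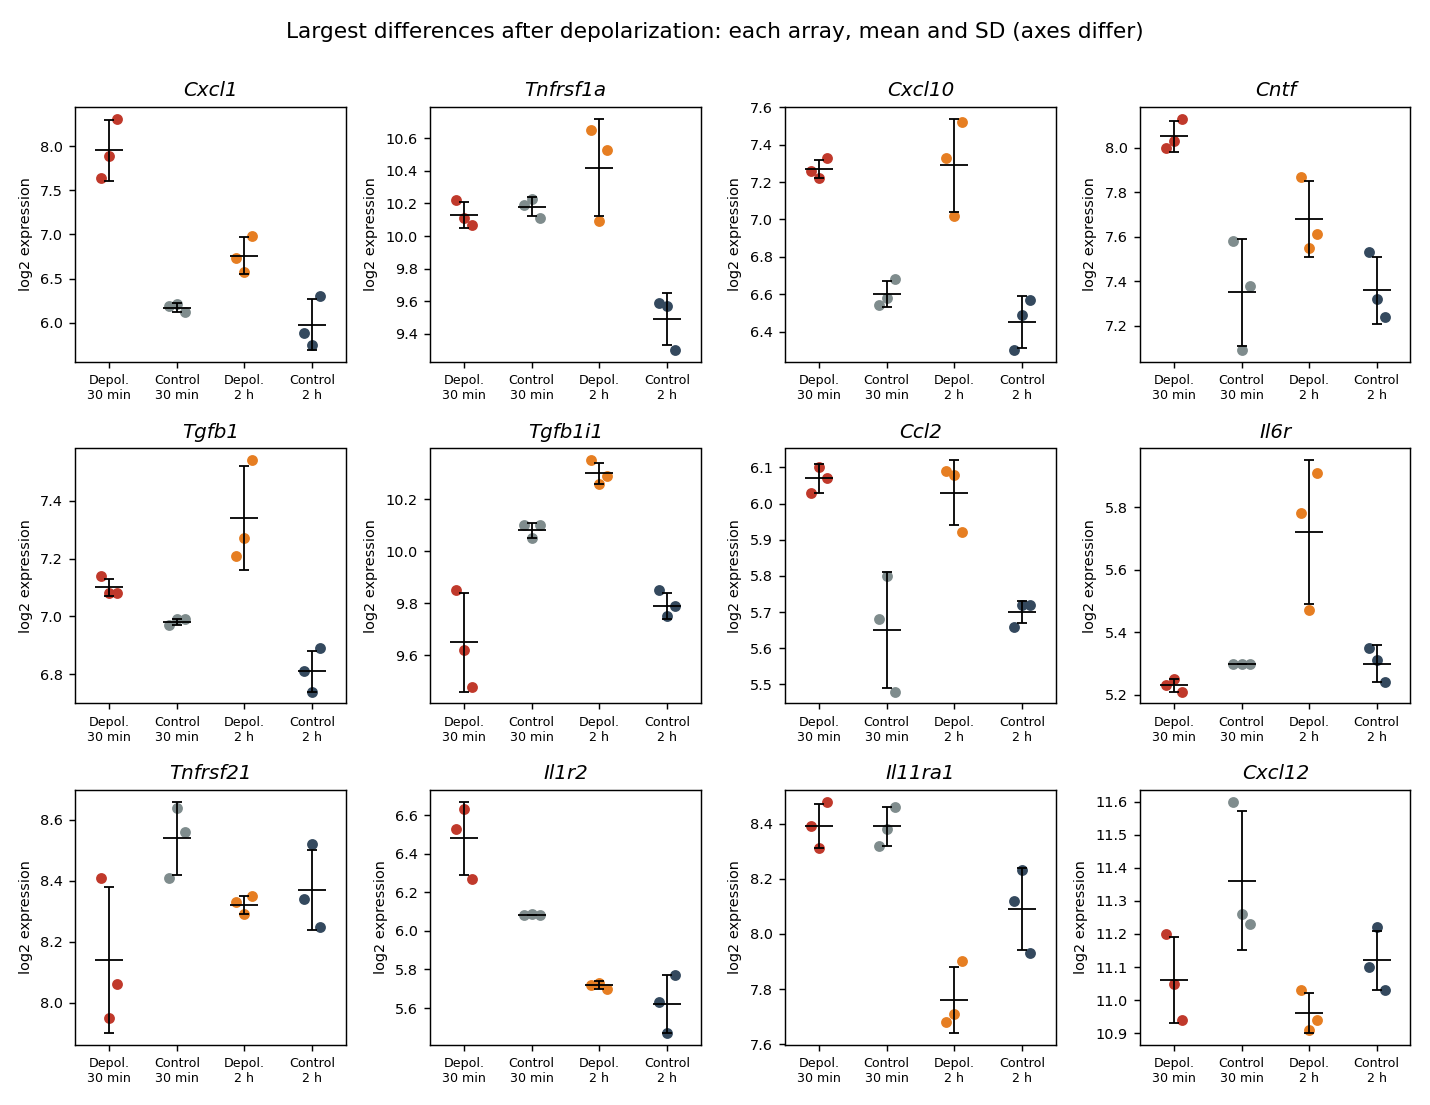
Log2 expression (vertical axis, scale differs by panel) in each array for the 12 members with the largest difference after depolarization, in depolarized and control cultures at 30 min and at 2 h. Points are arrays, long dashes are means and bars are SD (n = 3 each). Cxcl1 is highest in depolarized cultures at 30 min (7.64 to 8.31), and Tnfrsf1a is lowest in the 2 h controls (9.30 to 9.59).

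Among the 9 gp130 cytokines and receptors, 1 rose at 30 min, and 2 rose and 1 fell at 2 h. That was 11.1% and 33.3% of these few genes, against 24.0% and 25.2% of all probe sets. The ligand Cntf (chromosome 1, 219312512 to 219314535) had 7.87, 7.55 and 7.61 in depolarized cultures at 2 h, against 7.53, 7.32 and 7.24 in controls. Cntf had 8.0, 8.03 and 8.13 in depolarized cultures at 30 min, against 7.58, 7.09 and 7.38 in controls. The groups were apart at both times. The 2 h difference of 0.31 ± 0.11 (SE) did not pass the test (adjusted p = 0.0519), and at 30 min Cntf rose by 0.70 ± 0.11 (adjusted p = 0.000192). The test of the difference between the times did not pass (-0.39, adjusted p = 0.13). Its promoter (chr1:219314536-219314785, minus strand, RefSeq, GRCr8) is printed because it held the same AP-1 letters as that of Cxcl10, in capitals, 72 to 66 bases before the start.
Cntf: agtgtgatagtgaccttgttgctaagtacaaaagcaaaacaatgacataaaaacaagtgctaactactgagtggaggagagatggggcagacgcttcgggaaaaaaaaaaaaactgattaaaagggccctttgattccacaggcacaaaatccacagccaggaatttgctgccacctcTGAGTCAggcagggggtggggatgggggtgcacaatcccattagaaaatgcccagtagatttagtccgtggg
The receptor chain of Cntf did not follow its ligand. Cntfr differed by -0.01 at both times (adjusted p = 0.966 at 30 min and 0.956 at 2 h). Lif, a related ligand, differed by 0.19 at 30 min (adjusted p = 0.185), and its receptor Lifr by -0.05 (adjusted p = 0.736).

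Of the receptor chains for IL-6, the dim Il6r rose at 2 h, while the 2 h call of Il6st depended on the probe set. Il6r, the ligand-binding chain, had 5.78, 5.47 and 5.91 in depolarized cultures at 2 h, against 5.35, 5.31 and 5.24 in controls. At 30 min it had 5.23, 5.25 and 5.21 in depolarized cultures, against 5.30 in all 3 controls. The probe set was dim, and at 2 h each depolarized array lay above every control of either time. Il6r rose by 0.42 ± 0.09 at 2 h (SE, adjusted p = 0.0021), and the 2 h response exceeded the 30 min one by 0.49 (adjusted p = 0.0142). One end of its annotated span overlaps that of She. Il6st, the shared signal transducer gp130, had 10.70, 10.47 and 10.78 in depolarized cultures at 2 h, against 10.36, 10.41 and 10.28 in controls. It rose by 0.30 ± 0.08 (SE, adjusted p = 0.0134), with depolarized arrays above the 2 h controls but overlapping the 30 min controls (10.49 to 10.63). Its other probe sets gave 0.25 (adjusted p = 0.108) and 0.11 (adjusted p = 0.352) at 2 h, and the mean of the 3 did not pass. The 2 h call was also lost without depolarized replicate 4 or 6 (adjusted p from 0.0564 to 0.0679). At 30 min 1 of these other probe sets rose by 0.25 (adjusted p = 0.0348), while the brightest differed by -0.07. Il11ra1, the receptor chain for IL-11, had 7.68, 7.71 and 7.90 in depolarized cultures at 2 h, against 8.12, 8.23 and 7.93 in controls. It fell by 0.33 ± 0.08 (SE, adjusted p = 0.00857), a call lost without control replicate 5 (adjusted p = 0.0533). The annotated ends of Il11ra1 and Ccl27 overlap on chromosome 5.

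Il6 itself was dim and not called. It had 5.38, 5.33 and 5.31 in depolarized cultures at 30 min, against 5.12, 5.20 and 5.18 in controls, a difference of 0.18 (adjusted p = 0.0733). The groups did not overlap, but the difference was small and close to the threshold. Of the 21 interleukins and antagonists, 0 passed limma at 30 min, against 24.0% of all probe sets. Among the 21, 1 had an unadjusted p under 0.05 at 30 min and 0 passed the ordinary test. At 2 h 1 rose and 1 fell, 9.52% of these genes against 25.2% of all probe sets. Il1b, a main inflammatory interleukin, differed by 0.08 at 30 min (adjusted p = 0.482) and -0.00 at 2 h (adjusted p = 0.987). Il1rn, the antagonist of the IL-1 receptor, rose by 0.21 at 2 h (adjusted p = 0.0469), and was lost without control replicates 1, 2, 3, 4 or 5 or depolarized replicates 2, 4 or 5 (adjusted p from 0.0575 to 0.197). Its highest 2 h control and its lowest depolarized array were level to 2 decimals. Il18, a cytokine that induces interferon-gamma, fell by 0.24 at 2 h (adjusted p = 0.0455), with 7.08, 7.32 and 7.19 in depolarized cultures against 7.46, 7.50 and 7.35 in controls. The Il18 call was lost without control replicates 1, 4 or 5 or depolarized replicates 4 or 6 (adjusted p from 0.0533 to 0.192).

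Interleukin receptors gave 1 rise of 17 at 30 min and 3 rises at 2 h, with no fall passing at either time. These shares of 5.88% and 17.6% lay under the 24.0% and 25.2% of all probe sets. Il1r2, a decoy receptor that binds IL-1 without signalling, had 6.53, 6.63 and 6.27 in depolarized cultures at 30 min, against 6.08, 6.09 and 6.08 in controls. All depolarized arrays were higher, by 0.39 ± 0.09 (SE, adjusted p = 0.00322), and the probe set was dim. The 2 h difference was 0.10 (adjusted p = 0.485), and the test between the times did not pass (-0.30, adjusted p = 0.142). Il1r1, the signalling IL-1 receptor, rose at 2 h by 0.26 (adjusted p = 0.0217), and the arrays overlapped because depolarized replicate 6 (5.70) lay under control replicate 6 (5.73). Its other probe set gave 0.25 with groups apart (adjusted p = 0.00762). Il1rl1, the receptor for IL-33, differed by 0.11 at 2 h (adjusted p = 0.294), while its other, dim probe set rose by 0.26 (adjusted p = 0.0218). Il4r, the receptor chain for IL-4, rose by 0.25 at 2 h (adjusted p = 0.0305). That call was lost without control replicates 4, 5 or 6 or depolarized replicate 6 (adjusted p from 0.0524 to 0.129). Il17ra, the receptor chain for IL-17, rose by 0.19 at 2 h (adjusted p = 0.0448). It was lost without control replicates 1 to 5 or depolarized replicates 2, 3, 5 or 6 (adjusted p from 0.0503 to 0.167). Il4r, Il17ra and Il1rn in depolarized cultures at 2 h overlapped the 30 min controls.

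Tnfrsf1a, the main death-domain receptor for TNF, gave the largest rise among the members at 2 h. It had 10.65, 10.09 and 10.53 in depolarized cultures at 2 h, against 9.59, 9.57 and 9.30 in controls. At 30 min it had 10.22, 10.11 and 10.07 in depolarized cultures, against 10.19, 10.23 and 10.11 in controls. The groups were apart at 2 h and overlapped at 30 min. The rise at 2 h was 0.93 ± 0.12 (SE, adjusted p = 3.34e-05), a 1.91-fold difference, and exceeded the 30 min difference of -0.04 by 0.98 (adjusted p = 0.00082). The 2 h controls lay under the 30 min controls by 0.69 (adjusted p = 0.000239), and the depolarized cultures at 2 h overlapped the 30 min controls. The difference between depolarized cultures at 2 h and at 30 min was 0.29 and did not pass the test (adjusted p = 0.0559).

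Tnf itself, a main inflammatory cytokine, was at 8.12, 8.01 and 7.97 in depolarized cultures at 30 min, against 7.91, 8.01 and 7.95 in controls. Those arrays overlapped, with differences of 0.08 at 30 min (adjusted p = 0.459) and 0.02 at 2 h (adjusted p = 0.878). Tnfrsf21, death receptor 6, had 8.41, 7.95 and 8.06 in depolarized cultures at 30 min, against 8.41, 8.64 and 8.56 in controls. It fell by 0.40 ± 0.10 (SE, adjusted p = 0.00846), and the highest depolarized array lay level with the lowest control to 2 decimals. Without depolarized replicate 2 the adjusted p was 0.0539, the ordinary test also lost the call, and the 2 h difference was -0.05 (adjusted p = 0.784). Tnfsf12, the ligand TWEAK, fell by 0.25 at 30 min (adjusted p = 0.0369). Its highest depolarized array and lowest control were both at 7.45. Of 5 TNF ligands 0 were called by limma at 2 h, with 0 at an unadjusted p under 0.05 and 0 by the ordinary test. The share of all probe sets called at 2 h was 25.2%, and 5 genes are too few to set against it.

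Of the 7 TGF-beta members, 2 fell at 30 min and 2 rose at 2 h. This share of 28.6% at each time lay near the 24.0% and 25.2% of all probe sets. Tgfb1, a ligand with roles in tissue injury, had 7.21, 7.27 and 7.54 in depolarized cultures at 2 h, against 6.81, 6.74 and 6.89 in controls. At 30 min it had 7.14, 7.08 and 7.08 in depolarized cultures, against 6.97, 6.99 and 6.99 in controls. The groups were apart at both times. Tgfb1 rose by 0.53 ± 0.08 at 2 h (SE, adjusted p = 0.000142), and the 30 min difference of 0.12 did not pass the test (adjusted p = 0.336). The 2 h response was larger by 0.41 (adjusted p = 0.0199), a call lost without control replicate 5 (adjusted p = 0.0576).

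Tgfb1i1 had responses of opposite sign at the 2 times. It had 10.35, 10.26 and 10.29 in depolarized cultures at 2 h, against 9.85, 9.75 and 9.79 in controls. At 30 min it had 9.85, 9.62 and 9.48 in depolarized cultures, against 10.10, 10.05 and 10.10 in controls. No arrays overlapped within either time, and the depolarized arrays at 2 h were also above the 30 min controls. The 2 h controls lay under the 30 min controls, by a difference of -0.29 (limma, adjusted p = 0.00955). Tgfb1i1 rose by 0.51 ± 0.08 at 2 h (SE, adjusted p = 0.000224) and fell by 0.43 ± 0.08 at 30 min (adjusted p = 0.000642), and the responses differed by 0.94 (adjusted p = 4.57e-05).

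Tgfb3, a second ligand, fell by 0.20 at 30 min (adjusted p = 0.0485), with an overlap at 7.10. Leaving out control replicate 1, 2, 4, 5 or 6 or depolarized replicate 2, 3, 4 or 6, 9 of the 12 arrays, each ended the call (adjusted p between 0.0509 and 0.22). Tgfb2 differed by -0.09 at 30 min (adjusted p = 0.606) and 0.09 at 2 h (adjusted p = 0.58), although its other probe set rose by 0.31 at 2 h (adjusted p = 0.0119). The receptor Tgfbr1 differed by 0.09 at 30 min (adjusted p = 0.613) and -0.03 at 2 h (adjusted p = 0.884).

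Of the 5 colony-stimulating factors and receptors, which support myeloid cells, 0 were called by limma at either time, with 0 at an unadjusted p under 0.05 and 0 by the ordinary test. Over all probe sets 24.0% were called at 30 min and 25.2% at 2 h, and 5 genes are too few to set against these shares. Csf1 differed by 0.04 at 30 min (adjusted p = 0.787) and 0.09 at 2 h (adjusted p = 0.39). Its receptor Csf1r differed by -0.01 (adjusted p = 0.942) and 0.10 (adjusted p = 0.448) at these times.

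The response differed between the collection times for 7 members, larger at 2 h for 6 and smaller for 1. This was 6.86% of the members against 13.0% of all probe sets (6.16% larger and 6.79% smaller). Larger and smaller refer throughout to the difference with its sign and not to its size. Tgfb3, counted as larger, went from -0.20 at 30 min to 0.11 at 2 h, where it did not pass. Tnfrsf1a, Tgfb1i1, Il6r, Tgfb1, Il6st and Tgfb3 were the 6, and Cxcl1 was the 1. For Il6st (0.37, adjusted p = 0.0469) it held only without depolarized replicate 3 or 5, and leaving out each of the other 10 arrays ended it (adjusted p between 0.0539 and 0.112). The other probe sets of Il6st gave 0.09 (adjusted p = 0.8) and -0.14 (adjusted p = 0.538), and the mean of its probe sets did not pass. For Tgfb3 (0.31, adjusted p = 0.0472) leaving out control replicate 1, 2, 4 or 5 or depolarized replicate 2, 3, 4 or 6 ended the call (adjusted p between 0.074 and 0.131). After quantile normalization 5 were larger and 2 smaller. Of the 12 members that rose at 2 h, 6 had every depolarized array above the controls of both times (Ccl2, Cxcl1, Cxcl10, Il6r, Tgfb1 and Tgfb1i1), and 6 overlapped the 30 min controls (Il17ra, Il1r1, Il1rn, Il4r, Il6st and Tnfrsf1a).

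**Figure D3:**
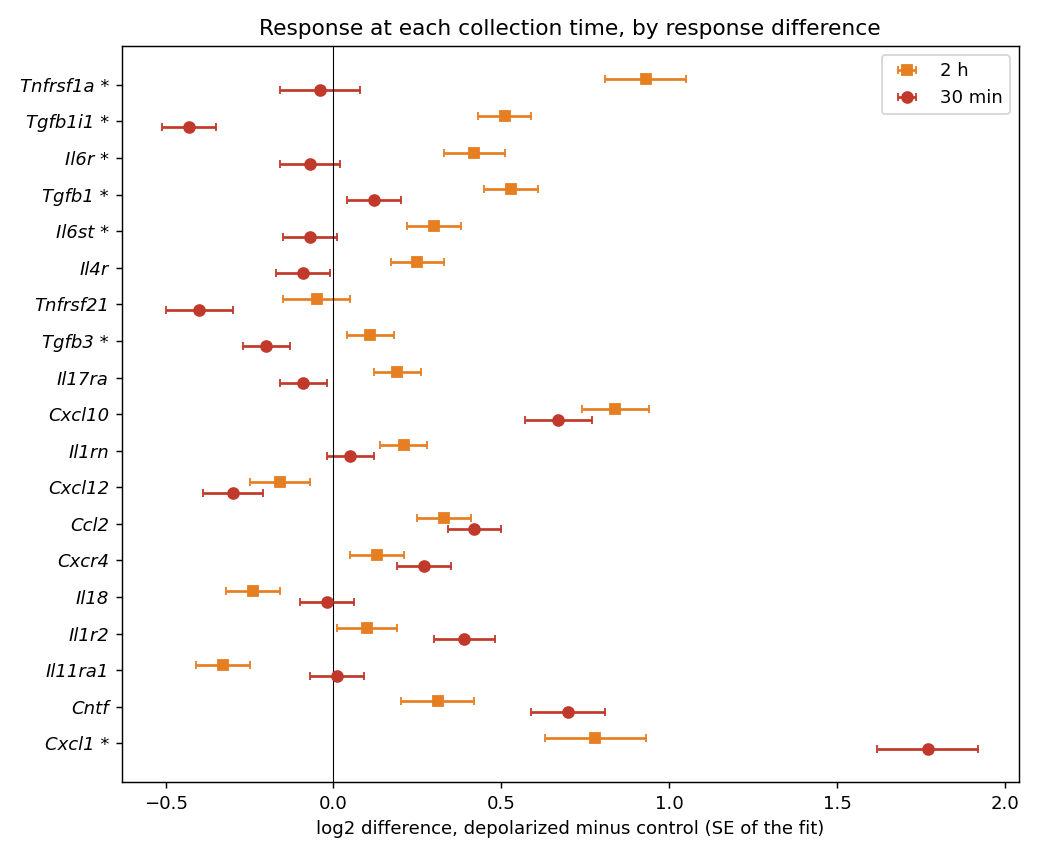
Difference between depolarized and control cultures (log2, with SE) at 2 h and at 30 min (upper and lower point of each gene) for the members named by the test, in rows. Asterisks mark members whose responses differed between the times at adjusted p under 0.05. Tnfrsf1a (0.93 at 2 h, -0.04 at 30 min) and Tgfb1i1 (0.51 at 2 h, -0.43 at 30 min) lie higher at 2 h, and Cxcl1 lies lower (0.78 at 2 h, 1.77 at 30 min).

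Genes that carry the signals of these receptors were counted from lists chosen with earlier results known. Of 20 NF-kB signalling genes measured, 6 rose and 2 fell at 30 min and 3 rose and 2 fell at 2 h. Nfkbia, the inhibitor that NF-kB itself induces, rose by 1.05 ± 0.11 at 30 min (SE, adjusted p = 4.17e-06) and by 0.50 at 2 h (adjusted p = 0.00405). Nfkb2, an NF-kB subunit precursor, rose by 0.61 at 30 min (adjusted p = 9.58e-05) and differed by 0.01 at 2 h (adjusted p = 0.945). Tab1, an activator of the kinase TAK1, fell by 1.04 at 30 min (adjusted p = 1.51e-08) and by 0.29 at 2 h (adjusted p = 0.00404).

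Of 18 JAK-STAT genes, 4 rose and 3 fell at 30 min and 4 rose and 1 fell at 2 h. Stat3, the transcription factor downstream of gp130, rose by 0.50 ± 0.10 at 30 min (SE, adjusted p = 0.00176) and 0.85 ± 0.10 at 2 h (adjusted p = 2.63e-05). Socs5, a suppressor of cytokine signalling, rose by 0.98 at 30 min (adjusted p = 1.31e-07) and 0.61 at 2 h (adjusted p = 3.39e-05). Pias3, an inhibitor of STAT3, fell by 1.03 at 30 min (adjusted p = 1.31e-07), and at 2 h differed by -0.11 (adjusted p = 0.355).

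Of 17 SMAD signalling genes, 6 rose and 2 fell at 30 min and 5 rose and 1 fell at 2 h. Tgif1, a repressor of SMAD targets, rose by 0.32 at 30 min (adjusted p = 0.00729) and 0.99 at 2 h (adjusted p = 7.81e-07). Smad3, which relays TGF-beta signals, rose by 0.34 at 2 h (adjusted p = 0.00424) and fell by 0.68 at 30 min (adjusted p = 7.81e-06). These signs were those of Tgfb1i1, and the Smad3 responses differed by 1.02 (adjusted p = 2.11e-05). Skil, another repressor of SMAD targets, rose by 0.61 at 30 min (adjusted p = 1.61e-05) and 0.35 at 2 h (adjusted p = 0.00272). The share called at 30 min was 40.0% of the NF-kB genes, 38.9% of the JAK-STAT genes and 47.1% of the SMAD genes, against 24.0% of all probe sets. At 2 h 5 of the 20 NF-kB genes, 27.8% of the JAK-STAT genes and 35.3% of the SMAD genes were called, against 25.2% of all probe sets, so the NF-kB and JAK-STAT shares lay near the background. These lists held few dim genes, 2, 2 and 1 in that order. The shares of all probe sets include the dim ones, of which only 6.45% were called at 30 min and 7.46% at 2 h. The share among probe sets that were not dim is therefore higher than the background given here, and the lists exceed it by less.

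Between the controls, 3 members were higher and 22 lower at 2 h than at 30 min, which was 24.5% of the members against 35.3% of all probe sets. Over all probe sets 18.1% were higher and 17.2% lower. Il33, an alarmin of the IL-1 family, had 7.50, 7.40 and 7.23 in the 2 h controls, against 8.23, 8.71 and 8.38 in the 30 min controls. The groups were far apart, and Il33 fell by 1.06 ± 0.11 (SE, adjusted p = 2.95e-06). The depolarization differences of Il33 did not pass the test (-0.18 with adjusted p = 0.322 at 30 min, and -0.05 with adjusted p = 0.807 at 2 h). Its other probe set fell by 0.47 between the controls (adjusted p = 0.00012). The chemokine Cxcl14 fell by 0.89 between the controls (adjusted p = 2.12e-05), with 7.64, 7.44 and 7.29 at 2 h against 8.16, 8.38 and 8.51 at 30 min. Tgfb3 fell by 0.47 (adjusted p = 6.84e-05). The 3 higher members were Ccl27, a skin-associated chemokine, by 0.54 (adjusted p = 5.91e-05), Cntfr by 0.42 (adjusted p = 0.0194) and Il3ra, the receptor chain for IL-3, by 0.40 (adjusted p = 0.00128). The Cntfr call was lost without control replicates 1, 4 or 5 (adjusted p from 0.0643 to 0.0749), with the mean of its probe sets and in the ordinary test. The other probe set of Cntfr differed by 0.27 (adjusted p = 0.299). The receptors Cxcr4 (-0.28, adjusted p = 0.0172) and Lifr (-0.27, adjusted p = 0.0111) were lower in the 2 h controls. Cxcr4 was lost without control replicates 1, 3 or 6 (adjusted p from 0.0533 to 0.0802) and Lifr without control replicate 2 (adjusted p = 0.0712). Csf1 was lower by 0.19 (adjusted p = 0.0461), and was lost without control replicates 1, 2, 4 or 5 or depolarized replicates 2, 4 or 6 (adjusted p from 0.0524 to 0.169). It was also lost after loess, in a fit of only the arrays compared, with a trended and robust prior, and in the ordinary test. Next in size above 0 was Tgfbr1, which differed by 0.21 and did not pass (adjusted p = 0.105).

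Cell type markers moved between the controls as well. Of 10 neuron markers 9 were higher at 2 h, with a median difference of 0.99, of 8 oligodendrocyte lineage markers 6 were lower, and of 8 progenitor markers 5 were lower and 1 higher. Of 16 microglia and macrophage markers 3 were lower and 0 higher, or 18.8%. Of 8 dopaminergic neuron markers 6 were higher and 0 lower, and of 8 astrocyte markers 1 was higher and 3 lower. Of 12 endothelial, mural cell and fibroblast markers 1 was higher and 4 lower, and of 7 lymphocyte markers 1 was lower. Over all probe sets 18.1% were higher and 17.2% lower, so the microglia and macrophage share lay near the background. The part of cell makeup in the control differences was not tested.

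**Figure D4:**
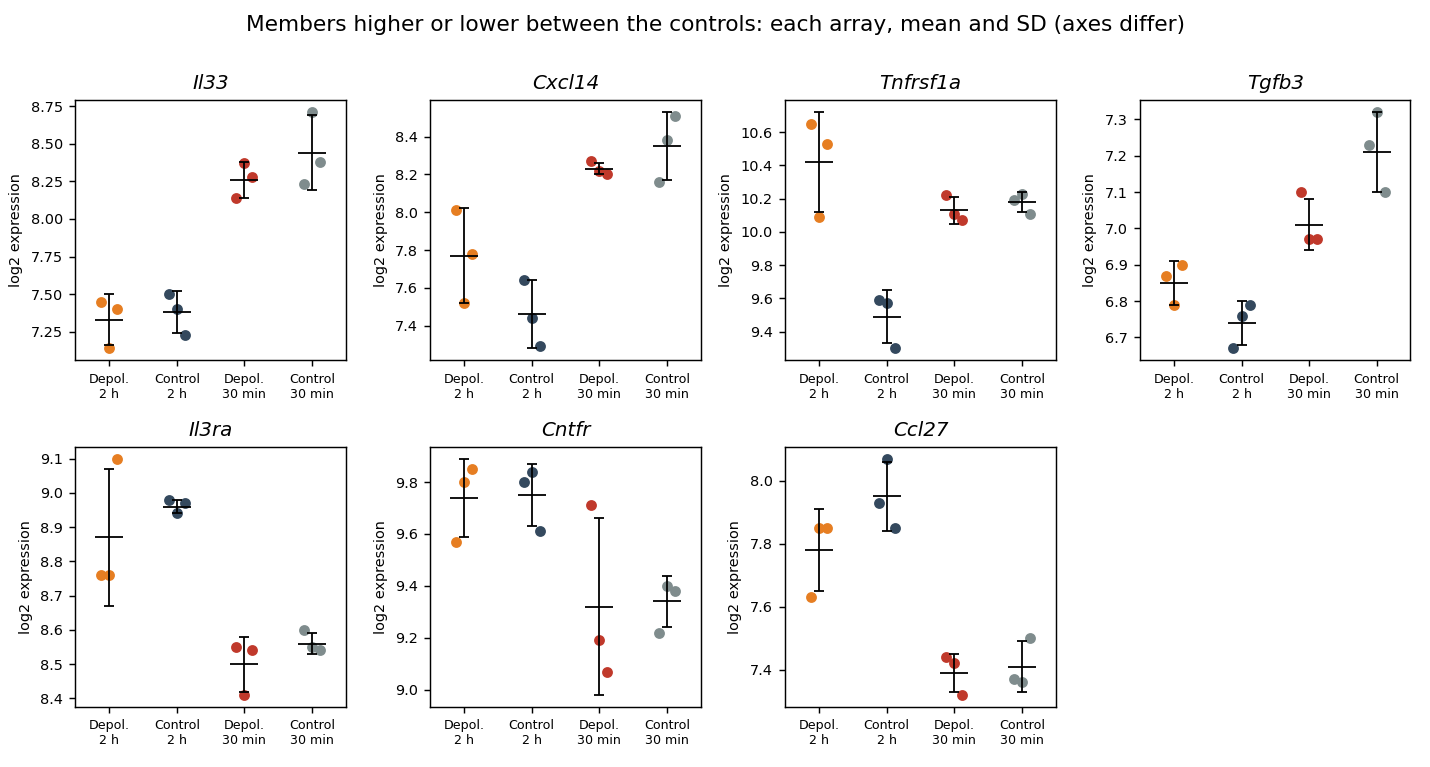
Log2 expression (vertical axis, scale differs by panel) in each array for the 4 members with the largest falls and the 3 members called higher between the 2 h and 30 min controls. Points are arrays, long dashes are means and bars are SD (n = 3 each). Il33 lies between 7.23 and 7.50 in the 2 h controls and between 8.23 and 8.71 in the 30 min controls, and Ccl27, Cntfr and Il3ra lie higher at 2 h.

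Between depolarized cultures at 2 h and at 30 min, 6 members were higher and 20 lower, which was 25.5% of the members against 41.0% of all probe sets (19.2% higher and 21.8% lower). After removal of each array's trend on level by loess, 11 were higher and 13 lower. Cxcl1 had the largest fall, of 1.19 ± 0.15 (SE, adjusted p = 1.49e-05), followed by Il33 with -0.93 (adjusted p = 8.92e-06) and Il1r2 with -0.76 (adjusted p = 5.29e-06). Tgfb1i1 rose most, by 0.65 ± 0.08 (adjusted p = 8.08e-06), and Il6r rose by 0.49 (adjusted p = 0.000302). These comparisons share arrays with those after depolarization and are given beside them as values.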

How the data were processed

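Per the submitters' processing notes, the authors used RMA (no version is given), and the deposited log2 values hold 1 summary per probe set and array. The table held 15923 probe sets, and 15866 were tested after 57 array controls were removed. The platform annotation, which can be old, gave a single symbol to 12783, several to 312 and none to 2771. All 102 members matched a gene identifier in RefSeq (GRCr8). Il13ra1 was not used because both of its probe sets carry several symbols. Arrays have no depth in reads, and precision is limited by their number. No detection calls were used.

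In limma 3.58.1 (R 4.3.3), all 12 arrays were fitted with 1 mean per group, empirical Bayes moderation and 8 residual degrees of freedom. Two-sided p-values were adjusted by Benjamini and Hochberg's method over every probe set tested. SE is that of the fit. The fit was tested on simulated arrays. Promoter matches were counted in RefSeq windows with Python 3.11.15.

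The members and lists were chosen with earlier results of these data known. Values were named where a member passed in a depolarization comparison or the response difference with depolarized arrays apart from controls, for a set of main cytokines and receptors whether or not they passed, and for the 4 members with the largest control difference each way, of which 3 rises and 4 falls passed. Other members were named after their values were seen. Up to 3 genes per signalling list with the smallest p were named. Alternatives were other scalings, filters, priors, probe set choices and tests, a replicate block, and omission of each array in turn. Same-numbered depolarized and control arrays had residual correlations from -0.322 to 0.236, and other pairs from -0.415 to 0.354. With residuals centred within groups of 3 arrays, this is a weak check of pairing and does not decide it. The labels state no block, so the numbers were not taken as pairs in the main fit.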

Additional observations from a re-analysis of the deposited data

Results flagged for a closer look

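These members had a response to depolarization that differed between the collection times by the test of the difference itself (limma, 2 h minus 30 min). With its sign, the response was more positive at 2 h for Tnfrsf1a by 0.98, for Tgfb1i1 by 0.94 and for Il6r by 0.49. The same held for Tgfb1 by 0.41, for Il6st by 0.37 and for Tgfb3 by 0.31. For Cxcl1 it was less positive, with a difference of -0.99. At the other probe sets of Il6st the differences were 0.09 and -0.14, and neither passed. These values are not sizes of response, since Tgfb1i1 went from -0.43 at 30 min to 0.51 at 2 h and Tgfb3 from -0.20 to 0.11. For Tnfrsf1a the 2 h controls also lay under the 30 min controls, by a difference of -0.69. The same held for Tgfb3 (-0.47) and Tgfb1i1 (-0.29, adjusted p = 0.00955). For Cxcl1, Il6r, Il6st and Tgfb1 the difference between the controls did not pass the test. The part of these control differences was not tested.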

How the results depend on the processing

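Across 3364 alternative values of the named members, 0 reversed a called direction, 3151 kept their side of the threshold, 146 were no longer past it and 67 newly passed it. At 30 min the 6 higher members became 3 when the dimmest 25% of probe sets were left out, which removes Ccl2, Cxcl1 and Il1r2 from the test. The 5 lower became 2 after median centring (with 9 higher), 2 in a fit of only the arrays compared, 1 in the ordinary equal-variance test and 3 with the replicate block. At 2 h the 2 lower became 1 after median centring, in the ordinary test and with a trended and robust prior. For the response difference, the 6 larger became 2 in the ordinary test, and the 1 smaller became 0 there and without the dimmest 25%, and 2 after quantile normalization. Between the controls, the 22 lower became 14 in the ordinary test. Between depolarized cultures at 2 h and 30 min, the 6 higher became 11 and the 20 lower became 13 after loess. Single calls lost under another setting included Tgfb3 at 30 min (median centring, only the arrays compared, ordinary test, trended and robust prior, replicate block), Il17ra, Il18, Il1rn and Il4r at 2 h (trended and robust prior for the first 3, ordinary test for the last 3), and the response differences of Cxcl1, Il6r, Tgfb1, Il6st and Tgfb3 (ordinary test). The cause of these changes was otherwise not tested.

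Leaving out 1 array gave 5 to 7 higher and 1 to 5 lower at 30 min, 8 to 15 higher and 0 to 3 lower at 2 h, 3 to 7 larger and 1 to 2 smaller responses, 2 to 3 higher and 12 to 25 lower between controls, and 4 to 8 higher and 12 to 26 lower between depolarized cultures. At 30 min, the lower count was 1 without depolarized replicate 2, 2 without control replicate 1, and 3 without control replicate 2 or depolarized replicate 3. At 2 h it was 0 without control replicate 5 and 1 without control replicate 1 or 4 or depolarized replicate 4. Larger responses were 3 without control replicate 5, and smaller ones 2 without control replicate 1 or 6 or depolarized replicate 3 or 6. The lower count between controls was 12 to 14 without control replicate 1, 2, 3, 4 or 5, and that between depolarized cultures 12 without depolarized replicate 6. With the replicate number as a block, 6 rose and 3 fell at 30 min, 10 rose and 2 fell at 2 h, and 4 responses were larger and 1 smaller. Of 6 depolarized arrays, 2 correlated best with the control of their own number. Weak signal limits the 46 dim members, and 3 arrays per group limit small differences.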
